A study of Rattus norvegicus with 4 samples.

Results

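The rat major histocompatibility complex (MHC), called RT1, and the genes that supply it with peptides were followed as 1 group of 44 rows in a count table of 23608 rows. The group holds all 34 rows whose name begins with RT1- and 10 partners, namely B2m, Cd74, Ciita, Tap1, Tap2, Tapbp, Psmb8, Psmb9, Psmb10 and Nlrc5. Of the 44, 30 reached 1 CPM, a count scaled to the library's size, in at least 1 library and were compared. The other 14 had at most 11 counts in any library.

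The cells were primary vascular cells of wild-type rats, taken from soft subcutaneous connective tissue and grown as microvessels on an extracellular matrix. The mRNA of 4 groups was sequenced, with 1 library per group: stiff matrix with A83-01, stiff matrix without it, soft matrix with A83-01, and soft matrix without it. A83-01 blocks the kinase activity of type I TGF-beta receptors. The study asked how matrix stiffness and this inhibitor act on microvessels and on pericytes, the mural cells of capillaries. The labels give no stiffness value, no dose, no time and no age or number of animals. Nothing in them says whether the libraries came from separate cultures or animals.

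MHC class I molecules present peptides from inside the cell to CD8+ T cells and are recognised by natural killer cells. The proteasome cuts the peptides, the TAP transporter (Tap1, Tap2) moves them into the endoplasmic reticulum, tapasin (Tapbp) helps to load them, and the heavy chain reaches the surface with the light chain beta-2 microglobulin (B2m). Class II molecules present peptides from the endosome to CD4+ T cells, with the invariant chain Cd74 guarding their groove, and are mostly made by professional antigen-presenting cells. Interferons raise both pathways, class I through factors that include the activator Nlrc5 and class II through the activator Ciita. Endothelial cells carry class I at rest.

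Total counts were 33416200 in stiff with A83-01, 33178552 in stiff, 32271844 in soft with A83-01 and 32475473 in soft. All 7 endothelial, 6 pericyte and mural, and 4 fibroblast markers looked for were detected in every library. The names of both stiff libraries follow another form than those of both soft libraries, so a separate preparation cannot be told apart from stiffness. Fold differences between 2 libraries carry a 95% interval in parentheses that covers counting error only. They compare those libraries, with no replicate check. Rows with a ratio of 2 or more and an interval clear of 1 are called at least 2-fold apart.

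The 5′ flanks of 5 members are shown because these genes span the pathway and had more than 100 counts in every library: the light chain, a classical heavy chain, a TAP subunit and both immunoproteasome subunits that stood at least 2-fold apart. They are RefSeq sequences of the assembly GRCr8, from 250 bases before the annotated start to 50 bases from it on, read 5′ to 3′ on the gene's strand. All 44 members matched RefSeq by symbol, and 38 had such a sequence. Capitals mark matches on either strand to the interferon-stimulated response element (searched as GAAA, any 2 bases, GAAA), to CCAAT, and to the NF-kB motif.
B2m at chr3:129549080-129549379, plus strand: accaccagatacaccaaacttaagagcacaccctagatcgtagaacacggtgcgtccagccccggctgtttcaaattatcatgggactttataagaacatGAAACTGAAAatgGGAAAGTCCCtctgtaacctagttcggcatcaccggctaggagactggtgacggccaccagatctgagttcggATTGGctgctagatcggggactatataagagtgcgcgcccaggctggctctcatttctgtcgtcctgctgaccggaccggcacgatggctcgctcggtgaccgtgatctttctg
RT1-A2 at chr20:4872621-4872920, plus strand: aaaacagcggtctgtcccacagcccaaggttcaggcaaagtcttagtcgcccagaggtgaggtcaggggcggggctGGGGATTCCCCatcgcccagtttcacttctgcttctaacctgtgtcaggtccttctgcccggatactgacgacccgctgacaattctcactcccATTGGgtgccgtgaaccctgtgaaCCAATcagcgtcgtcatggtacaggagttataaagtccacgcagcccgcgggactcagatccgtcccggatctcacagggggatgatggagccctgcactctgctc
Tap1 at chr20:4668494-4668793, minus strand: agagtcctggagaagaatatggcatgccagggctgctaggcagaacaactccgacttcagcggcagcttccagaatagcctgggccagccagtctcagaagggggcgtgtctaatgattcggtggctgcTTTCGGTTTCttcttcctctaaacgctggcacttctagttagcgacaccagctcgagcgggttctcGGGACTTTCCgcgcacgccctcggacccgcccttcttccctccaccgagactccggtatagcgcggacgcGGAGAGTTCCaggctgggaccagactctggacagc
Psmb9 at chr20:4668750-4669049, plus strand: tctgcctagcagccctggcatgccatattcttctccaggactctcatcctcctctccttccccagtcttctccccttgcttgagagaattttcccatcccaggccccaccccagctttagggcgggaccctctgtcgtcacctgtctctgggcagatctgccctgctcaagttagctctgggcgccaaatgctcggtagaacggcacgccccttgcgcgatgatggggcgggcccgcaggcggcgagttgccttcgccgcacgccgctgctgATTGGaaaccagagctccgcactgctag
Psmb10 at chr19:50743243-50743542, minus strand: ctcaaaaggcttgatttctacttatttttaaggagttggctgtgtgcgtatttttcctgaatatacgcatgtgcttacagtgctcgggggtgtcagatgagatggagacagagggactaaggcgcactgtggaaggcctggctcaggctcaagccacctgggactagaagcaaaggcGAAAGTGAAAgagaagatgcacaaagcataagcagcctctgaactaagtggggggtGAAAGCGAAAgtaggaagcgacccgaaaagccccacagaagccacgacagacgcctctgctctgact

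Tap1 and Psmb9 lie head to head, with 457 bases between their annotated starts, and their windows share 44 bases. The interferon element began at -150 in B2m, at -121 in Tap1, and at -73 and -17 in Psmb10, counted from the annotated start. Tap1 also held NF-kB matches at -55 and 16. The B2m flank also held an NF-kB match at -137 and CCAAT at -64. RT1-A2 held 2 overlapping NF-kB matches, at -174 and -173, and CCAAT at -80 and -56. The Psmb9 window held only CCAAT, at 23 past the start. Of the 38 member windows, 9 held the interferon element, 28 held CCAAT and 13 held the NF-kB motif, while 3.92%, 37.5% and 10.5% of all 33469 windows of this length held them. TTCNNNGAA, the gamma-activated site, was in 2 of 38 member windows and 8.87% of all, and the cyclic AMP response element TGACGTCA was in 1 of 38 and 1.83% of all. A match describes the letters of this window and no more.

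Of the 4 pairs of libraries, A83-01 on stiff matrix had the most members at least 2-fold apart. All 30 compared members were higher in the stiff library with A83-01 than in the stiff library, as were 7143 of all 13634 rows compared. The members' median log2 ratio was 0.68, while the median of all rows was 0.02. With the 2 members that had 0 counts in stiff set at their lower bounds, the median was again 0.68. Of the 30, 12 were at least 2-fold higher and 0 at least 2-fold lower, against 7.80% of all rows higher and 4.47% lower. With total-count scaling these were 15 and 0 members, against 12.2% of all rows higher and 2.87% lower. The 12 were the 4 RT1-T24 rows, RT1-CE6, RT1-CE16, RT1-M6-2, RT1-S3, Psmb9, Psmb10, Nlrc5 and Cd74. RT1-CE16 and Nlrc5 reached 1 CPM in stiff with A83-01 alone and so had to be high there. Without both, a choice made after seeing the data, 10 of 28 members were at least 2-fold higher and 0 lower, with a median log2 ratio of 0.63. On soft matrix, A83-01 gave 0 members at least 2-fold higher and 0 lower, where 2.18% of all rows were higher and 2.44% lower, and the members' median log2 ratio was 0.14, against 0.00 over all rows.

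Most of the group had its minimum in the untreated stiff library. By CPM, 26 of the 30 members were lowest there (86.7%), and this library was lowest for 31.4% of all rows compared. Without RT1-CE16 and Nlrc5 it was 25 of 28. RT1-A1, RT1-CE5 and RT1-N3 were lowest in soft, though with total-count scaling they were lower in stiff than in soft. RT1-CE16 was at 0 in 3 libraries. The highest value stood in stiff with A83-01 for 16 members, in soft with A83-01 for 9, in soft for 5 and in stiff for 0. Over all rows compared, the shares were 27.2% for stiff with A83-01, 23.9% for soft with A83-01, 19.9% for soft and 29% for stiff. The 16 include RT1-CE16 and Nlrc5, which had to be highest in stiff with A83-01. The A83-01 comparison on stiff and the comparison of stiff with soft share this stiff library, so its values enter both.

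**Figure D1:**
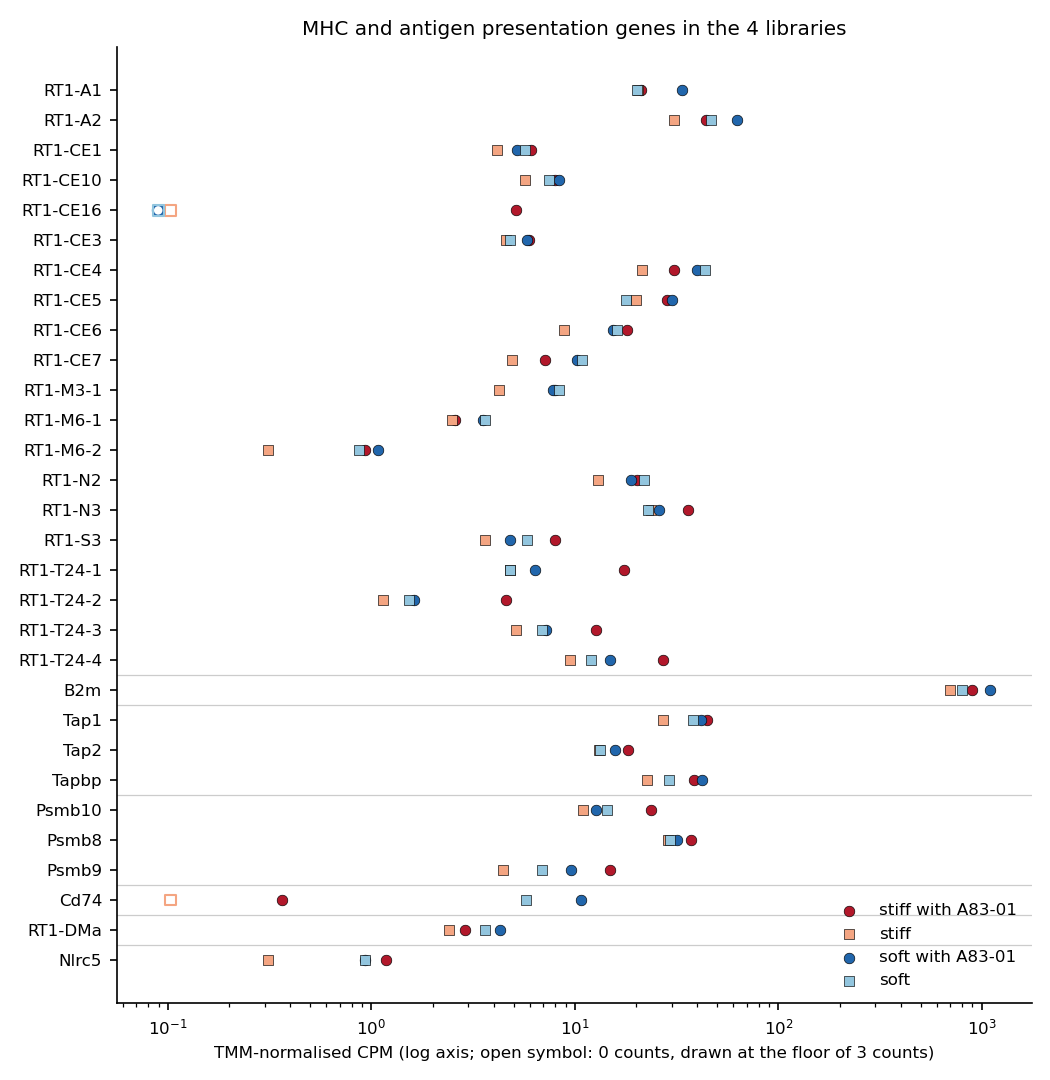
CPM (log axis) of each of the 30 compared members, with 1 symbol per library and members set apart by role. Open symbols stand for 0 counts and are drawn at the level of 3 counts. The untreated stiff library holds the lowest symbol for 26 of 30 members, and B2m lies above all others, at 695 to 1102 CPM.

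Class I heavy chains made up most of the group, with 24 rows, of which 20 were compared. RT1-M2, RT1-M4, RT1-M5 and RT1-S2 had at most 4 counts. Many of these genes are near-identical copies, and 7 members overlap another on GRCr8, which is not the build of the table, among them RT1-CE4, RT1-CE5, RT1-CE6 and RT1-CE7 and the rows RT1-T24-2, RT1-T24-3 and RT1-T24-4. Whether the counted rows share reads was not tested. Reads can be split between near-identical copies, or lost, in a way the table does not show, and each single RT1 class I value is uncertain. RefSeq lists RT1-CE6 and RT1-T24-2 as long noncoding RNAs. Sums over rows are less touched by such splitting and are given first.

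The class I heavy chain rows together held 11131 counts in stiff with A83-01, 5472 in stiff, 10168 in soft with A83-01 and 8771 in soft. Scaled to library size this was 312 CPM in stiff with A83-01, 188 in stiff, 303 in soft with A83-01 and 262 in soft. The stiff library alone was low, and the sum with A83-01 was about equal on both matrices. The sum was 1.66-fold higher in stiff with A83-01 than in stiff (1.61 to 1.71) and 1.16-fold higher in soft with A83-01 than in soft (1.13 to 1.19). It was 1.39-fold lower in stiff than in soft (1.35 to 1.44), and with A83-01 in both the stiff to soft ratio was 1.03 (1.00 to 1.06). Families within this last sum differed, with 2.06 for RT1-T24 (1.91 to 2.22), 0.677 for RT1-A (0.642 to 0.714) and 0.951 for RT1-CE (0.909 to 0.994). Without the RT1-T24 rows the ratio was 0.916 (0.889 to 0.943). In bulk RNA, fewer cells that carry these transcripts and less RNA per cell cannot be told apart.

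The 4 RT1-T24 rows, nonclassical class I genes, made up a larger part of the class I counts in stiff with A83-01 than in the other libraries. They held 19.8% of class I counts in stiff with A83-01, 10.9% in stiff, 9.92% in soft with A83-01 and 9.60% in soft. Their exact binomial 95% intervals were 19.1% to 20.6% in stiff with A83-01 and 10.1% to 11.7% in stiff. Summed, RT1-T24 was 3.02-fold higher in stiff with A83-01 than in stiff (2.76 to 3.31), 1.20-fold higher in soft with A83-01 than in soft (1.09 to 1.31), and 2.06-fold higher in stiff with A83-01 than in soft with A83-01 (1.91 to 2.22). Without these rows, the class I sum was 1.49-fold higher in stiff with A83-01 than in stiff (1.44 to 1.55). On GRCr8, 3 of the 4 rows overlap one another, so they may not be separate readings.

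All 4 RT1-T24 rows showed this order when taken singly. RT1-T24-4 had 966 counts in stiff with A83-01, 275 in stiff, 500 in soft with A83-01 and 400 in soft, and was 2.86-fold higher in stiff with A83-01 than in stiff (2.50 to 3.29). RT1-T24-1, which overlaps none of the other three on GRCr8, had 624 counts in stiff with A83-01, 139 in stiff, 214 in soft with A83-01 and 161 in soft, a ratio of 3.66 between both stiff libraries (3.04 to 4.43). RT1-T24-3 had 454 counts in stiff with A83-01, 149 in stiff, 241 in soft with A83-01 and 230 in soft, and RT1-T24-2 had 163 counts in stiff with A83-01, 33 in stiff, 54 in soft with A83-01 and 51 in soft. For each of the 4 rows, stiff with A83-01 was the highest library.

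**Figure D2:**
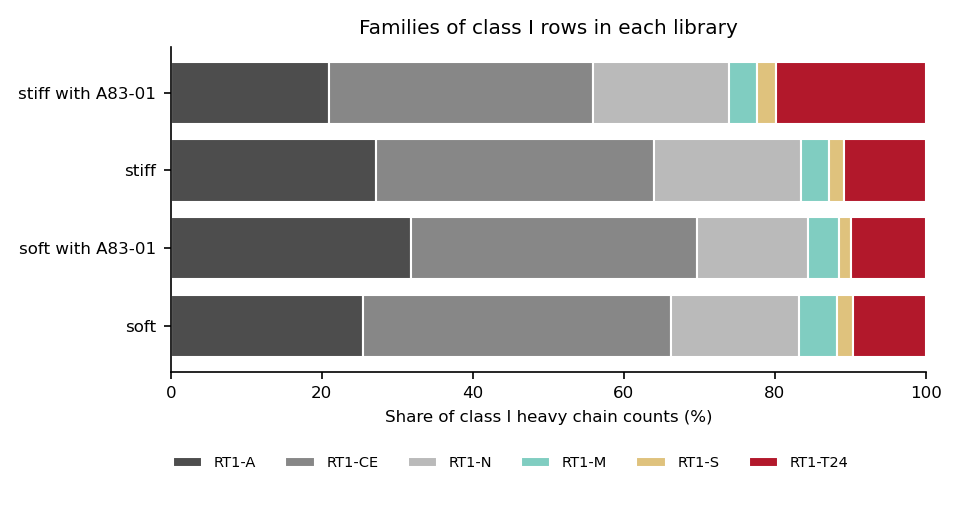
Share of all class I heavy chain counts (percent) held by each RT1 class I family, with 1 stacked bar per library. RT1-T24 holds 19.8% in stiff with A83-01 and 9.60% to 10.9% in the other libraries.

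The classical class I rows RT1-A1 and RT1-A2 followed another order. RT1-A2, the class I row with the highest FPKM (authors' counts per length and library size) in every library, had 1578 counts in stiff with A83-01, 891 in stiff, 2103 in soft with A83-01 and 1559 in soft. RT1-A1 had 750 counts in stiff with A83-01, 597 in stiff, 1129 in soft with A83-01 and 675 in soft. Both were highest in soft with A83-01. Between both stiff libraries RT1-A1 had a ratio of 1.02 (0.919 to 1.14), which counting error covers, while RT1-A2 was 1.44-fold higher with A83-01 (1.33 to 1.57). On soft matrix RT1-A1 was 1.67-fold higher with A83-01 (1.52 to 1.84). The RT1-A share of class I counts was 20.9% in stiff with A83-01, 27.2% in stiff, 31.8% in soft with A83-01 and 25.5% in soft.

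The 8 RT1-CE rows, a cluster of mostly nonclassical class I genes, held the largest share of class I counts in every library, 35.0% in stiff with A83-01, 36.8% in stiff, 37.8% in soft with A83-01 and 40.7% in soft. Their sum was 1.57-fold higher in stiff with A83-01 than in stiff (1.49 to 1.66) and 1.54-fold lower in stiff than in soft (1.46 to 1.62). RT1-CE4 had 1089 counts in stiff with A83-01, 619 in stiff, 1339 in soft with A83-01 and 1467 in soft, and was 2.06-fold lower in stiff than in soft (1.87 to 2.26). RT1-CE5 had 1009 counts in stiff with A83-01, 578 in stiff, 1003 in soft with A83-01 and 600 in soft, so both untreated libraries were low, with a stiff to soft ratio of 1.11 (0.988 to 1.25). The count ratio of these neighbours, which overlap on GRCr8, RT1-CE4 over RT1-CE5, was 1.08 in stiff with A83-01, 1.07 in stiff, 1.34 in soft with A83-01 and 2.45 in soft (2.22 to 2.69).

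RT1-CE6 had 642 counts in stiff with A83-01, 256 in stiff, 513 in soft with A83-01 and 539 in soft. RT1-CE7 had 254 counts in stiff with A83-01, 143 in stiff, 344 in soft with A83-01 and 363 in soft, and was 2.20-fold lower in stiff than in soft (1.81 to 2.69). RT1-CE1, RT1-CE3 and RT1-CE10 ranged from 121 to 286 counts over the 4 libraries, and each was lowest in stiff.

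RT1-CE16 had 184 counts in stiff with A83-01 and 0 in stiff, soft with A83-01 and soft. Taking 3 counts as the floor for a count of 0, it was at least 50.0-fold higher in stiff with A83-01 than in stiff and at least 57.7-fold higher than in soft with A83-01. No source used here tells how reads of near-identical copies were assigned, so this row is uncertain.

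The remaining class I rows belong to the RT1-N, RT1-M and RT1-S families. RT1-N3 had 1288 counts in stiff with A83-01, 685 in stiff, 865 in soft with A83-01 and 765 in soft, and RT1-N2 had 720 counts in stiff with A83-01, 376 in stiff, 635 in soft with A83-01 and 730 in soft. RT1-S3 had 284 counts in stiff with A83-01, 105 in stiff, 161 in soft with A83-01 and 195 in soft, 2.21-fold higher in stiff with A83-01 than in stiff (1.76 to 2.79). Both RT1-N3 and RT1-S3 were highest in stiff with A83-01. RT1-M3-1, whose mouse counterpart presents N-formylated peptides, had 285 counts in stiff with A83-01, 123 in stiff, 261 in soft with A83-01 and 280 in soft. RT1-M6-1 had 92 counts in stiff with A83-01, 72 in stiff, 119 in soft with A83-01 and 121 in soft. RT1-M6-2 had 33 counts in stiff with A83-01, 9 in stiff, 36 in soft with A83-01 and 29 in soft, so its ratio of 2.99 between both stiff libraries had a wide interval (1.40 to 7.11).

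B2m, the light chain shared by all class I molecules, was the most abundant member, with 896 CPM in stiff with A83-01, 695 in stiff, 1102 in soft with A83-01 and 798 in soft. It was 1.29-fold higher in stiff with A83-01 than in stiff (1.27 to 1.31) and 1.38-fold higher in soft with A83-01 than in soft (1.36 to 1.40). Both A83-01 libraries thus stood above both untreated ones. It was 1.15-fold lower in stiff than in soft (1.13 to 1.17). By FPKM, which corrects for length, the summed heavy chains stood at 42.7% of B2m in stiff with A83-01, 32.0% in stiff, 32.9% in soft with A83-01 and 39.2% in soft.

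The peptide loading genes were each lowest in the untreated stiff library and less than 2-fold apart in every pair. Tap1 had 44.8 CPM in stiff with A83-01, 27.1 in stiff, 41.5 in soft with A83-01 and 38.0 in soft, and was 1.65-fold higher in stiff with A83-01 than in stiff (1.51 to 1.80). Its partner subunit Tap2 had 18.2 CPM in stiff with A83-01, 13.2 in stiff, 15.8 in soft with A83-01 and 13.4 in soft, with a ratio of 1.38 between both stiff libraries (1.21 to 1.57). Tapasin, Tapbp, had 38.7 CPM in stiff with A83-01, 22.6 in stiff, 42.0 in soft with A83-01 and 29.2 in soft. It was 1.71-fold higher with A83-01 on stiff (1.56 to 1.88) and 1.44-fold higher with A83-01 on soft (1.33 to 1.56). The 8 other loading and trimming partners included the chaperones calreticulin and calnexin. Of these 8, 0 were at least 2-fold apart between both stiff libraries, with a median log2 ratio of -0.04. Over all rows, 7.80% were higher and 4.47% lower, so 0 of 8 does not set these partners apart.

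The immunoproteasome genes encode catalytic subunits that take the place of constitutive ones and favour peptides fit for class I. Psmb9 had 528 counts in stiff with A83-01, 129 in stiff, 319 in soft with A83-01 and 231 in soft, and was 3.34-fold higher in stiff with A83-01 than in stiff (2.75 to 4.08). Psmb10 had 844 counts in stiff with A83-01, 318 in stiff, 427 in soft with A83-01 and 479 in soft, with a ratio of 2.16 between both stiff libraries (1.90 to 2.47). Psmb8 had 1333 counts in stiff with A83-01, 831 in stiff, 1060 in soft with A83-01 and 983 in soft, with a ratio of 1.31 (1.20 to 1.43). All 3 were highest in stiff with A83-01 and lowest in stiff, by CPM.

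Set beside the constitutive subunit that each replaces, the immunoproteasome genes differed most between libraries for Psmb9 and Psmb10. Psmb9 stood at 24.5% of Psmb6 by FPKM in stiff with A83-01, 6.55% in stiff, 16.1% in soft with A83-01 and 13.7% in soft. Psmb10 stood at 24.3% of Psmb7 in stiff with A83-01, 10.8% in stiff, 14.8% in soft with A83-01 and 18.0% in soft. Psmb8 stood at 30.6% of Psmb5 in stiff with A83-01, 20.9% in stiff, 31.1% in soft with A83-01 and 28.2% in soft. Of the 8 constitutive proteasome and activator genes, 0 were at least 2-fold apart between both stiff libraries, with a median log2 ratio of -0.11. Over all rows, 7.80% were higher and 4.47% lower, so 0 of 8 does not set these genes apart. The activator subunit Psme1, named after its values were seen, was 1.84-fold higher in stiff with A83-01 than in stiff (1.72 to 1.96).

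**Figure D3:**
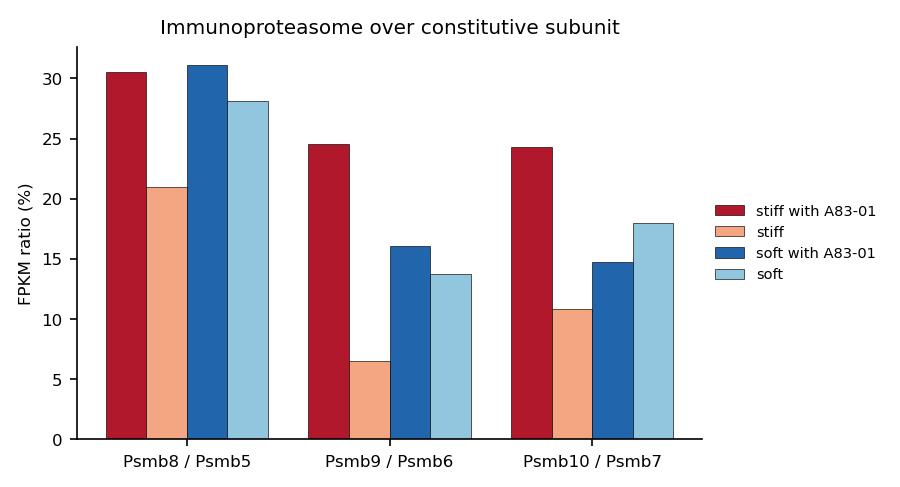
FPKM of each immunoproteasome subunit as a percentage of the constitutive subunit it replaces, in the 4 libraries, 1 value per library. Psmb9 stands at 24.5% of Psmb6 in stiff with A83-01 and at 6.55% in stiff.

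Nlrc5, the class I transcriptional activator, was low, with 42 counts in stiff with A83-01, 9 in stiff, 31 in soft with A83-01 and 31 in soft. It was 3.81-fold higher in stiff with A83-01 than in stiff (1.83 to 8.89) and 2.99-fold lower in stiff than in soft (1.39 to 7.14), and both ratios rest on the 9 counts of the stiff library. Ciita, the class II activator, had 0 counts in all 4 libraries, which allows at most 0.0842 CPM in stiff with A83-01, 0.103 in stiff, 0.0895 in soft with A83-01 and 0.0896 in soft when 3 counts are taken as the limit. Among 11 other transcription factors of these pathways, 0 were at least 2-fold apart between both stiff libraries, with a median log2 ratio of 0.24. Over all rows, 7.80% were higher and 4.47% lower, so 0 of 11 does not set these factors apart.

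Cd74, the invariant chain of class II, had 13 counts in stiff with A83-01, 0 in stiff, 361 in soft with A83-01 and 192 in soft. Both stiff libraries thus lay far below both soft ones. With a floor of 3 counts it was at least 55.6-fold lower in stiff than in soft and at least 3.53-fold higher in stiff with A83-01 than in stiff. With A83-01 in both, it was 29.5-fold lower in stiff than in soft (17.1 to 56.0), and in soft with A83-01 it was 1.88-fold higher than in soft (1.57 to 2.25).

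The class II chains themselves were near the detection limit, and of 10 rows only RT1-DMa, a chain of the peptide editor DM, was compared. It had 103 counts in stiff with A83-01, 70 in stiff, 143 in soft with A83-01 and 121 in soft, with a stiff to soft ratio of 0.666 (0.489 to 0.901). RT1-DMb, its partner chain, had 0 counts in stiff with A83-01, 10 in stiff, 0 in soft with A83-01 and 9 in soft. RT1-Da and RT1-Db1, the chains of the main rat D molecule, had at most 10 and 11 counts, and RT1-Da had 0 in both stiff libraries. RT1-Ba and RT1-Bb had at most 4 and 5 counts and were at 0 in both stiff libraries, and RT1-DOb had at most 2. RT1-DOa, RT1-Db2 and RT1-Ha had 0 counts throughout.

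Some leukocyte markers were lower on stiff matrix, as Cd74 was, and others were not. Of 21 listed, 20 were in the table and 12 were compared, and in stiff against soft 4 of them were at least 2-fold lower and 1 higher, where 8.58% of all rows were lower and 5.33% higher. Their summed level was 126 CPM in stiff with A83-01, 102 in stiff, 187 in soft with A83-01 and 142 in soft. Adgre1, which encodes the macrophage marker F4/80, had 85 counts in stiff with A83-01, 13 in stiff, 1254 in soft with A83-01 and 820 in soft, and fell on stiff matrix in the test of stiffness described next (log2 change -4.64, SE 0.445, adjusted p = 0.0152, edgeR quasi-likelihood). Ptprc, which encodes the pan-leukocyte CD45, had 43 counts in stiff with A83-01, 23 in stiff, 126 in soft with A83-01 and 97 in soft. Lyz2, the lysozyme gene of myeloid cells, had 217 counts in stiff with A83-01, 682 in stiff, 34 in soft with A83-01 and 53 in soft, and rose on stiff matrix (log2 change 3.28, SE 0.380, adjusted p = 0.0213, edgeR quasi-likelihood). The B-cell gene Ms4a1, the dendritic-cell gene Xcr1 and the T-cell genes Cd3e and Cd3g were at 0 in all 4 libraries. Clec9a, also a dendritic-cell gene, was detected, with 126 counts in stiff with A83-01, 30 in stiff, 110 in soft with A83-01 and 59 in soft. Itgax, of dendritic cells and macrophages, had 221 counts in stiff with A83-01, 178 in stiff, 103 in soft with A83-01 and 141 in soft. The part of leukocytes in the Cd74 difference was not tested.

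The test of stiffness set 2 stiff against 2 soft libraries, with A83-01 as the second term and 1 residual degree of freedom. The quasi-likelihood test of edgeR, with p-values adjusted over all 13634 rows by the Benjamini-Hochberg method, called 1 of the 30 members up on stiff (2.35% of all rows) and 1 down (3.29% of all rows). Cd74 fell, with a log2 change of -5.59 (SE 0.708, adjusted p = 0.0253, edgeR quasi-likelihood). The row called up was RT1-CE16, with a log2 change of 9.38 (SE 1.20, adjusted p = 0.0392, edgeR quasi-likelihood), whose counts came from 1 library alone. The call of RT1-CE16 was lost with DESeq2 size factors (adjusted p = 0.0539), DESeq2's Wald test (adjusted p = 0.675), limma-voom (adjusted p = 0.140) and without A83-01 in edgeR's model (adjusted p = 0.337). The call of Cd74 was lost without A83-01 in edgeR's model (adjusted p = 0.147). At an unadjusted p under 0.05 the same test gave 1 up and 4 down. The share of all rows at that level is not given here. What this model leaves as error is how far the A83-01 responses on both matrices differ, so rows whose response depends on the matrix have a large error in it.

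A83-01 was tested in the same model, and edgeR's quasi-likelihood test called 0 members up (0% of all rows) and 0 down (0.0440% of all rows). The lowest adjusted p among members was 0.145. At an unadjusted p under 0.05 the count was 7 up and 0 down, made of RT1-CE16, Tapbp, RT1-CE5, RT1-A2, Psmb9, RT1-T24-1 and RT1-T24-4. The share of all rows at that level is not given here, so this count cannot be called particular to the members. DESeq2's Wald test and limma-voom also called 0 members in either direction. When libraries were scaled by their totals only, the quasi-likelihood test called 5 members up. For that count, too, no share of all rows is given here.

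The A83-01 response was larger on stiff than on soft matrix for most members, a difference that the additive model leaves in its residual. On the log2 scale, the response on stiff minus that on soft was at least 1, with a counting interval above 0, for 11 of 30 members, where 6.26% of all rows compared met this, and at most -1 for 0 members, where 3.20% of all rows did. Without RT1-CE16 and Nlrc5 the count was 9 of 28. The median difference was 0.66 over the 30 members and 0.02 over all rows. Without RT1-CE16 and Nlrc5 the members' median was 0.63. Of the 30 members, 27 lay above 0, as did 7128 of all 13634 rows. Psmb9 had a log2 response of 1.73 on stiff and 0.46 on soft, Psmb10 of 1.11 on stiff and -0.17 on soft, and RT1-S3 of 1.13 on stiff and -0.27 on soft. B2m had 0.37 on stiff and 0.47 on soft, and RT1-A1 had 0.03 on stiff and 0.74 on soft. With no residual degrees of freedom these differences have no test.

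**Figure D4:**
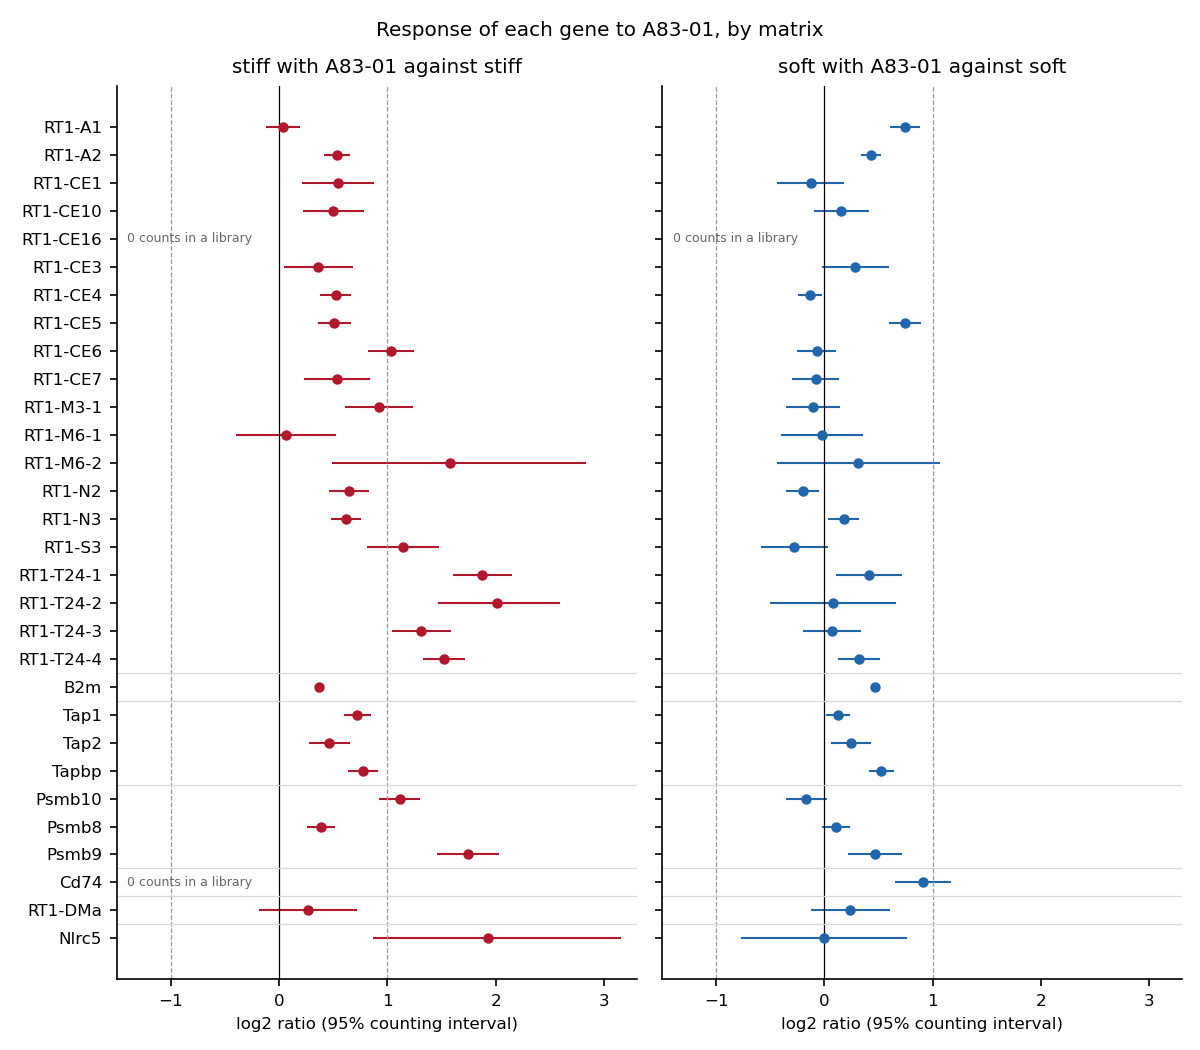
Log2 ratio of A83-01 over no inhibitor for each compared member on stiff matrix (left panel) and on soft matrix (right panel), with 95% counting intervals as bars. Dashed lines mark a 2-fold difference, and rows with 0 counts in a library have no point. On stiff matrix every point lies above 0, while on soft matrix the points lie on both sides of it and none passes 2-fold.

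In stiff against soft without A83-01, the members had a median log2 ratio of -0.43, against 0.00 over all rows. Of the 30, 0 were at least 2-fold higher (5.33% of all rows) and 5 at least 2-fold lower (8.58% of all rows), namely Cd74, Nlrc5, RT1-CE4, RT1-CE7 and RT1-M6-2. With total-count scaling it was 0 higher and 7 lower, against 3.82% and 11.8% of all rows. With A83-01 in both libraries the median was 0.10, against 0.01 over all rows. There 3 members were at least 2-fold higher (6.88% of all rows), RT1-CE16, RT1-T24-1 and RT1-T24-2, and 1 was lower (6.72% of all rows), Cd74. RT1-CE16 reached 1 CPM in stiff with A83-01 alone and so had to be high there. Without it and Nlrc5, 2 of 28 members were higher and 1 lower, with a median of 0.06.

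Interferon response genes outside the MHC, which share regulators with it, were higher with A83-01 on stiff matrix as well. Of 15 compared, 12 were at least 2-fold higher in stiff with A83-01 than in stiff and 0 lower, with a median log2 ratio of 1.60, where 7.80% of all rows were higher and 4.47% lower. Cxcl9 and Mx2 reached 1 CPM in stiff with A83-01 alone, and without both it was 10 of 13. In soft with A83-01 against soft, 3 were at least 2-fold higher and 0 lower, with a median of 0.56, where 2.18% of all rows were higher and 2.44% lower. In stiff against soft 0 were higher and 4 lower, with a median of -0.65, where 5.33% of all rows were higher and 8.58% lower. The T-cell chemokine gene Cxcl10 had 188 counts in stiff with A83-01, 20 in stiff, 116 in soft with A83-01 and 45 in soft, 7.67-fold higher in stiff with A83-01 than in stiff (4.82 to 12.8). Cxcl9, of the same family, had 92 counts in stiff with A83-01, 3 in stiff, 14 in soft with A83-01 and 5 in soft.

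Antiviral genes of this list did not all share 1 order. Rsad2, which encodes viperin, had 106 counts in stiff with A83-01, 13 in stiff, 57 in soft with A83-01 and 28 in soft, and Mx2, a dynamin-like GTPase, had 119 counts in stiff with A83-01, 19 in stiff, 18 in soft with A83-01 and 17 in soft. Both were highest in stiff with A83-01. Usp18, which removes ISG15, had 72 counts in stiff with A83-01, 8 in stiff, 250 in soft with A83-01 and 89 in soft. Oasl, an oligoadenylate synthetase relative, had 51 counts in stiff with A83-01, 16 in stiff, 311 in soft with A83-01 and 222 in soft, and fell on stiff matrix, with a log2 change of -3.08 (SE 0.343, adjusted p = 0.0204, edgeR quasi-likelihood). For A83-01, edgeR's quasi-likelihood test called 0 of these 15 genes up or down, with 9 up at an unadjusted p under 0.05. DESeq2's Wald test called 3 up and limma-voom 0. No share of all rows is given here for the 9 or the 3. The 6 genes of the interferon gamma receptor pathway included 0 at least 2-fold higher and 1 lower in stiff with A83-01 than in stiff. Over all rows, 7.80% were higher and 4.47% lower in this pair.

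**Figure D5:**
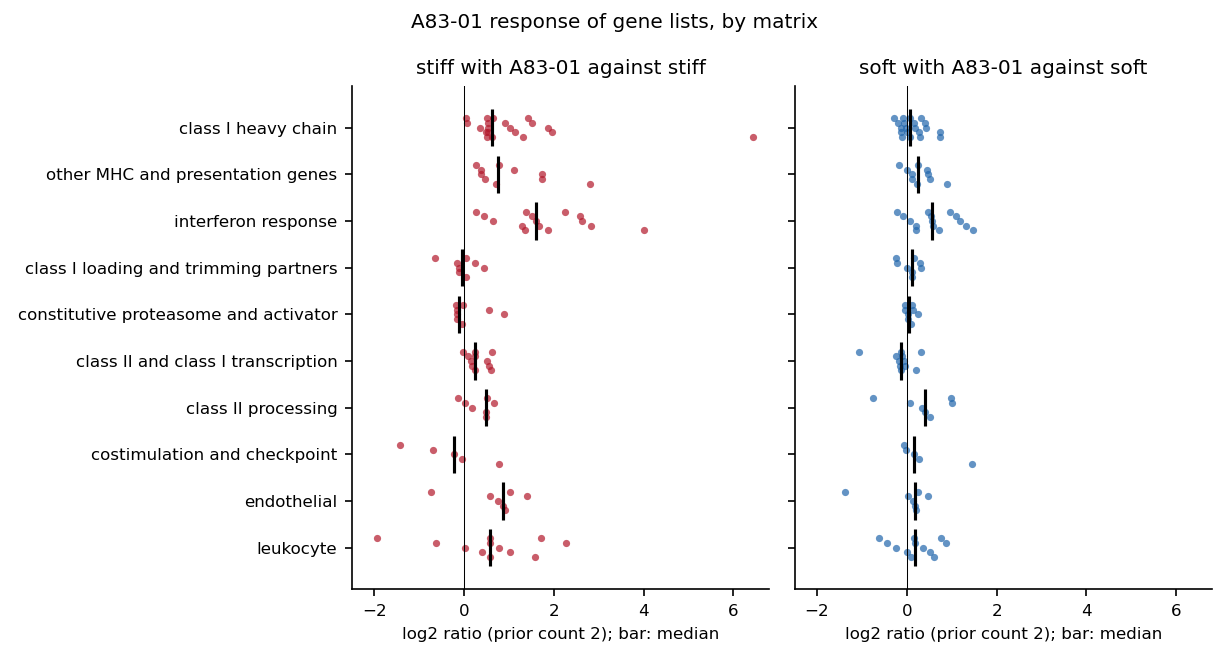
Log2 ratio of A83-01 over no inhibitor (with a prior count of 2) on stiff matrix (left panel) and on soft matrix (right panel), with 1 point per compared gene and a bar at each list's median. The interferon response list has a median of 1.60 on stiff and 0.56 on soft, and the constitutive proteasome and activator list has one of -0.11 on stiff.

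Cell type markers differed between the libraries as well. The summed endothelial markers stood at 2242 CPM in stiff with A83-01, 1264 in stiff, 1640 in soft with A83-01 and 1614 in soft, lowest in stiff. Of 7, 2 were at least 2-fold higher in stiff with A83-01 than in stiff and 0 lower, where 7.80% of all rows were higher and 4.47% lower. Vwf, the endothelial gene of von Willebrand factor, had 663 counts in stiff with A83-01, 906 in stiff, 1608 in soft with A83-01 and 4203 in soft. It fell on stiff matrix (log2 change -1.69, SE 0.197, adjusted p = 0.0217, edgeR quasi-likelihood). The other endothelial markers did not all follow Vwf. In stiff against soft, 6 of the 7 were lower and 1 higher, but with A83-01 in both, 2 were lower and 5 higher. In stiff with A83-01 against stiff, 6 were higher and Vwf alone was lower. The summed pericyte and mural markers stood at 3170 CPM in stiff with A83-01, 2468 in stiff, 1489 in soft with A83-01 and 1870 in soft. Of 6, 3 were at least 2-fold higher in stiff with A83-01 than in stiff and 0 lower, against the same shares of all rows. By sign alone, 4 of the 6 were higher there and 2 lower, with a lowest log2 ratio of -0.55. Rgs5, a pericyte regulator of G-protein signalling, had 7830 counts in stiff with A83-01, 2423 in stiff, 777 in soft with A83-01 and 732 in soft, and rose on stiff matrix (log2 change 2.59, SE 0.346, adjusted p = 0.0280, edgeR quasi-likelihood).

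The 4 fibroblast markers did not share 1 order. The collagen gene Col1a1 made up most of their sum in each library except soft with A83-01, and the sum was 25230 CPM in stiff with A83-01, 71954 in stiff, 41613 in soft with A83-01 and 53076 in soft. Without Col1a1, the other 3 markers summed to 6151 CPM in stiff with A83-01, 2479 in stiff, 24036 in soft with A83-01 and 13823 in soft, and so were lower in both stiff libraries. Dcn, which encodes the matrix proteoglycan decorin, fell on stiff matrix (log2 change -2.53, SE 0.404, adjusted p = 0.0397, edgeR quasi-likelihood). Pdgfra, a receptor of platelet-derived growth factor, fell as well (log2 change -2.18, SE 0.216, adjusted p = 0.0159, edgeR quasi-likelihood). The part of these shifts in the class I and immunoproteasome ratios was not tested.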

How the data were processed

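The mRNA of 4 libraries, 1 per group, was analysed. Per the labels' protocols, RNA was extracted with Trizol, captured with oligo(dT) beads, primed with random hexamers and sequenced from both ends (DNBSEQ-T7), with no molecular identifiers and no strand-marking step mentioned. Per the submitters' processing notes, HISAT2 and edgeR were used with Rnor_6.0. No source used here names the read counter, the annotation or how reads matching several genes were handled. The authors deposited whole-number read counts per gene, not normalised, and a second table of FPKM values, which scale counts by length and library size. Among 23 members with 100 counts or more in each library, the count to FPKM ratio implied a constant length, within 5%, for 19.

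The tools were edgeR 4.0.16, DESeq2 1.42.0 and limma 3.58.1, run in R 4.3.3. Trimmed mean of M-values (TMM) factors over all 4 libraries were 1.07 (stiff with A83-01), 0.876 (stiff), 1.04 (soft with A83-01) and 1.03 (soft). Of 23608 rows, the 13634 that reached 1 TMM-scaled CPM in any library were kept. Log2 ratios used a prior count of 2, and folds are ratios of CPM with 95% conditional binomial (Clopper-Pearson) intervals. Where a library had 0 counts, 3 counts took their place and the fold is a lower bound. Intervals and floors cover counting error only, and PCR copies may make them too narrow. Stiffness and A83-01 were tested in an additive model by the quasi-likelihood test of edgeR (Benjamini-Hochberg, 0.05). With 1 residual degree of freedom, the p-values reflect only how these libraries vary, which may be technical. The SE is the log2 change divided by the square root of the F statistic. The procedure was tested on simulated data.

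Members and companion lists were chosen with earlier results of these data known. Of the companion lists, genes are named where called in the additive test or at least 4-fold apart in a pair, at most 6 per list. Psme1, Ptprc, Clec9a, Itgax, Col1a1 and the genes in the closing section were named after their values were seen. The markers at 0 are listed whether they passed or not. The genes Itgam and Icosl were not analysed here. Sequences are from RefSeq, assembly GRCr8, which is not the build of the table, so they serve as a description only. The alternatives were scaling by total counts or by DESeq2 size factors, no expression minimum, a prior count of 0.5, the authors' FPKM, DESeq2's Wald test, limma-voom, and a model without the other factor.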

Additional observations from a re-analysis of the deposited data

Results flagged for a closer look

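In 7 members the difference between stiff and soft had opposite signs with and without A83-01, lower in stiff than in soft without it and higher with it, and both counting intervals excluded equality. The log2 ratio with A83-01 minus that without it was 1.40 for RT1-S3, 1.28 for Psmb10, 1.26 for Psmb9, 1.24 for RT1-T24-3, 1.19 for RT1-T24-4, 1.10 for RT1-CE6 and 0.60 for Tap1. In 2 members A83-01 went with a higher value on stiff and a lower one on soft, with a difference of 0.84 for RT1-N2 and 0.65 for RT1-CE4. With 1 library per group these differences were not tested, and all 9 use the same untreated stiff library. The share of all rows that meets the same rules is not given here, so these counts cannot be called particular to the members.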

How the results depend on the processing

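No paired analysis was possible because each group is 1 library, and for the same reason no replicate could be left out. Scaling by total counts alone lowered the median log2 ratio of all rows to -0.23 in stiff against soft and raised it to 0.31 in stiff with A83-01 against stiff. Under it, the log2 ratio of the summed class I rows was 1.01 for stiff with A83-01 against stiff (0.73 with TMM), -0.71 for stiff against soft (-0.48 with TMM) and 0.080 for stiff with A83-01 against soft with A83-01 (0.041 with TMM). It turned the sign of 4 of 118 member ratios (Nlrc5 in soft with A83-01 against soft, and RT1-A1, RT1-CE5 and RT1-N3 in stiff against soft), DESeq2 size factors turned that of 1 (RT1-T24-1 in stiff against soft), and a prior count of 0.5 that of 0. With no expression minimum, the members at least 2-fold lower were 2 in stiff with A83-01 against soft with A83-01, 1 in stiff with A83-01 against stiff and 1 in soft with A83-01 against soft. The rows added were RT1-Da in the first of these pairs and RT1-DMb in the others, with 0 counts against 9 or 10. No share of all rows is given for this setting. With the authors' FPKM, 15 members were at least 2-fold higher in stiff with A83-01 than in stiff and 7 lower in stiff than in soft. These FPKM counts rest on the ratio alone, with 0.1 added to each value and no interval. The share of all rows by FPKM is not given here, so these counts cannot be called particular to the members. For stiffness, the count of members called up was 0 with DESeq2 size factors, DESeq2's Wald test, limma-voom and the model without A83-01, and the count called down was 2 with total-count scaling and 0 without A83-01 in the model. The adjusted p of Cd74 over the alternatives was 1.02e-09 to 0.147, and that of RT1-CE16 was 9.38e-06 to 0.675. For A83-01, 5 members were called up with total-count scaling, with no share of all rows given. The causes of these changes were not tested, except that fewer or more rows pass where the minimum itself differs.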

Other observations

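Genes that act beside antigen presentation had their own orders. Cd274, which encodes the checkpoint ligand PD-L1, had 146 counts in stiff with A83-01, 69 in stiff, 252 in soft with A83-01 and 224 in soft, and was 2.82-fold lower in stiff than in soft (2.14 to 3.75, 95% counting interval). The costimulatory gene Cd86 had 0 counts in stiff with A83-01, 3 in stiff, 39 in soft with A83-01 and 13 in soft. With a floor of 3 counts it was at least 13.8-fold lower in stiff with A83-01 than in soft with A83-01. Cd86 reached 1 CPM in soft with A83-01 alone and so had to be high there. Cd40, the costimulatory receptor, had 126 counts in stiff with A83-01, 107 in stiff, 225 in soft with A83-01 and 228 in soft, so both stiff libraries were below both soft ones. Of the 5 costimulation and checkpoint genes compared, edgeR's quasi-likelihood test called 0 by stiffness, with 4 down at an unadjusted p under 0.05. The share of all rows at that unadjusted level is not given here. DESeq2's Wald test and limma-voom also called 0.

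Among regulators, Irf1, a transcription factor induced by interferon gamma, had 1721 counts in stiff with A83-01, 916 in stiff, 845 in soft with A83-01 and 1003 in soft, and was 1.91-fold higher in stiff with A83-01 than in soft with A83-01 (1.76 to 2.08). Jak2, a kinase of the interferon gamma receptor, had 1826 counts in stiff with A83-01, 4642 in stiff, 3812 in soft with A83-01 and 4477 in soft. It was 3.12-fold lower in stiff with A83-01 than in stiff (2.95 to 3.29), while Cxcl10 and Psmb9 were higher there. Hfe, a class I-like gene of iron balance, had 77 counts in stiff with A83-01, 27 in stiff, 70 in soft with A83-01 and 65 in soft.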
